A study of Mus musculus with 9 samples.

Results

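Eef1a1 and Eef1a2 are the 2 mouse genes that encode eEF1A, and they were taken by name from the 52780 genes of the count table. They were picked for their counts in these very samples, so their own values are given as a description, without a test. The samples were 9 cultures of C2C12 cells, an established line of mouse myoblasts, collected as myotubes on day 4 of differentiation in low-serum medium. 3 cultures were wild type controls (WT), 3 had received siRNA against the macroH2A1.1 isoform (si mH2A1.1, labelled KD mH2A1.1) and 3 siRNA against the macroH2A1.2 isoform (si mH2A1.2, labelled KD mH2A1.2), at 10 nM and in repeated transfections before and during differentiation. The labels call the controls wild type and do not state whether they were transfected, the study's text sets its knockdowns against a control siRNA, and neither says which of the siRNAs available for each isoform was used. All groups come from the same cell line, and the study counts each group's cultures as independent biological replicates. The counts came from poly(A)-selected RNA read as single reads of 50 bases, with 36924252 to 42223108 counts per sample.

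The targeted gene was lower in both knockdowns, although gene counts cannot tell the isoforms apart. H2afy, which encodes both macroH2A1 isoforms by alternative splicing, had 2103 to 2367 counts in WT, 1215 to 1573 in si mH2A1.1 and 1609 to 1809 in si mH2A1.2. Its log2 fold change against WT was -0.85 in si mH2A1.1 (adjusted p = 0.00331, edgeR) and -0.39 in si mH2A1.2 (adjusted p = 0.108, edgeR; 0.0406 with DESeq2).

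eEF1A is the GTPase that carries aminoacyl-tRNAs to the ribosome during translation elongation. Its GDP is exchanged for GTP by the eEF1B complex, of which Eef1b2, Eef1d and Eef1g encode subunits. Eef1a1 is expressed in nearly all cells and is among the most abundant messages of growing cells, and Eef1a2 is the form of adult skeletal muscle, heart and neurons, and in mouse muscle it takes the place of Eef1a1 after birth. MacroH2A1 is a histone variant with a large additional domain, and the macroH2A1.1 form of that domain binds ADP-ribose.

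Eef1a2 (ENSMUSG00000016349) lies on the minus strand at chr2:181147653-181157014 of GRCm38 and has 1 annotated transcript of 8 exons and 2084 bases. No other annotated gene overlaps it. Eef1a1 (ENSMUSG00000037742) lies on the minus strand at chr9:78478449-78489151 and has 8 annotated transcripts, of which the main coding one, Eef1a1-201, has 8 exons and 1794 bases. A miRNA gene of the same strand, Gm26377, lies inside Eef1a1. The coding sequences of the pair were identical at 80.13% of 1389 aligned bases. They are shown here at their longest identical run, because the run decides whether a read could have been given to the wrong gene: the 23 bases in capitals are the same in both, the lower-case bases flank them, and both windows span the junction of exons 3 and 4 in the coding sequence (Eef1a1, chr9:78480127-78480281, minus strand; Eef1a2, chr2:181153059-181153691, minus strand; GRCm38, 5′ to 3′, intron left out).
Eef1a1: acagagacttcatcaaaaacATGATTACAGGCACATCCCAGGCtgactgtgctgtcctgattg
Eef1a2: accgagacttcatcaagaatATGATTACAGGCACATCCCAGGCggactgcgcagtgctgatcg
The run was shorter than the 50-base reads, and none of the 2035 different 50-base words of the Eef1a2 transcript occurred in Eef1a1 or in any other annotated gene. Reads counted for Eef1a2 therefore had no second exact source among the annotated transcripts. Of the 2619 words of Eef1a1, 1057 (40.4%) also occurred in other genes, mostly processed pseudogenes.

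The start regions of the pair have little in common in their letters. Each is shown from 250 bases before to 50 bases after the annotated start (RefSeq, GRCm38.p6, minus strand, 5′ to 3′; Eef1a1, chr9:78481675-78481974; Eef1a2, chr2:181156966-181157265), since Eef1a2 is the gene that went from near 0 counts to a measurable level, with the letters CANNTG (the E-box) and TATAA, searched on both strands, in capitals.
Eef1a1: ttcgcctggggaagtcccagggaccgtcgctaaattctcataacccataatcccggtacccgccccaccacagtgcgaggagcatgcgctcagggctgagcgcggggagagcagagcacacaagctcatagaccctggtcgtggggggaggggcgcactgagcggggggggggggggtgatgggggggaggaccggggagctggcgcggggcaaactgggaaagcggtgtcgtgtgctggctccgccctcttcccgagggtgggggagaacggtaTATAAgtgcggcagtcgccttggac
Eef1a2: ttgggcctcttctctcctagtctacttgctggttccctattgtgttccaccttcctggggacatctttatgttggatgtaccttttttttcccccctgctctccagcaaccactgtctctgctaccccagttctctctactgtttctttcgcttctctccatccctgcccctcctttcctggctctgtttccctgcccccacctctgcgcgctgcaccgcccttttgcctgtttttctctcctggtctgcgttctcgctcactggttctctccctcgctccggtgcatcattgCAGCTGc
The Eef1a1 window was 66.7% G and C with 22 CpG dinucleotides, and the Eef1a2 window 55.0% with 8, beside medians of 52.7% and 7 over 32851 such windows. Eef1a2 held 1 CANNTG match, the letters CAGCTG at position 44 after the start, and Eef1a1 held none. A CANNTG match occurred in 72.3% of all windows and CAGCTG in 16.3%. Eef1a1 held 1 TATAA match, at position 26 after the start, as 24.9% of all windows did, and Eef1a2 none. The MEF2 consensus, present in 3.19% of windows, was in neither. These are matches of letters in short windows and not sites of binding.

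Eef1a2 was counted at a clear level in the 3 si mH2A1.1 cultures and hardly at all in the other 6. Its counts were 216, 201 and 283 in si mH2A1.1 replicates 1 to 3. They were 3, 2 and 0 in WT and 1, 0 and 1 in si mH2A1.2. The lowest si mH2A1.1 sample was far above the highest of the others, while WT and si mH2A1.2 overlapped at a few reads each. On the CPM scale (counts relative to a TMM-scaled library size) the si mH2A1.1 level was 5.61 ± 0.812 (SD, n = 3), with samples at 5.33, 4.97 and 6.52. The same level was 0.0445 ± 0.0409 in WT and 0.0181 ± 0.0157 in si mH2A1.2. Both low groups stayed at or under the 3 counts that an observation of 0 allows, which is 0.0691 to 0.0826 CPM at these depths, so no fold between them is given.

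Over summed counts, corrected for library size, Eef1a2 was 128-fold higher in si mH2A1.1 than in WT, with an exact 95% interval of 54.6 to 395 from 700 against 5 counts. Against si mH2A1.2 the ratio was 315, with an interval of 86.8 to 2605 from 700 against 2 counts. The intervals cover counting error only. With so few reads in WT the ratio moved with single libraries: it was 215 without WT replicate 1 and 84.3 without WT replicate 3. Eef1a2 passed the filter on low counts through its si mH2A1.1 samples alone, as only those 3 had at least 10 counts, and Eef1a1 passed in all 9.

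Eef1a1, the general form, was one of the most counted genes in every sample and remained so in si mH2A1.1. Its counts were 238488, 274241 and 265736 in WT. In si mH2A1.1 they were 234161, 236747 and 223179. In si mH2A1.2 they were 184046, 253931 and 248630. These counts put it between the 4th and the 12th place of all genes and made up 0.496% to 0.733% of all counts, against places 10705 to 11172 for Eef1a2 in si mH2A1.1. On the CPM scale Eef1a1 stood at 6848 ± 462 in WT, 5591 ± 390 in si mH2A1.1 and 6123 ± 916 in si mH2A1.2 (SD, n = 3 each). The si mH2A1.1 samples (5142 to 5848) lay below the WT samples (6384 to 7308), and the si mH2A1.2 samples (5066 to 6677) overlapped both. The fitted log2 fold change of Eef1a1 was -0.29 (SE 0.15) in si mH2A1.1 and -0.16 (SE 0.15) in si mH2A1.2 against WT. Between the knockdowns it was -0.13 (SE 0.15). The si mH2A1.2 value rested largely on replicate 1, whose Eef1a1 level was the lowest of the 9 samples: without it the log2 fold change was -0.05. Neither member is counted as called, because both were chosen on these contrasts. Across all 19545 genes tested, 11.1% were called in si mH2A1.1 against WT, 2.35% in si mH2A1.2 against WT and 22.5% (12.0% higher and 10.5% lower) in si mH2A1.1 against si mH2A1.2, at an adjusted p of at most 0.05 (edgeR).

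**Figure D1:**
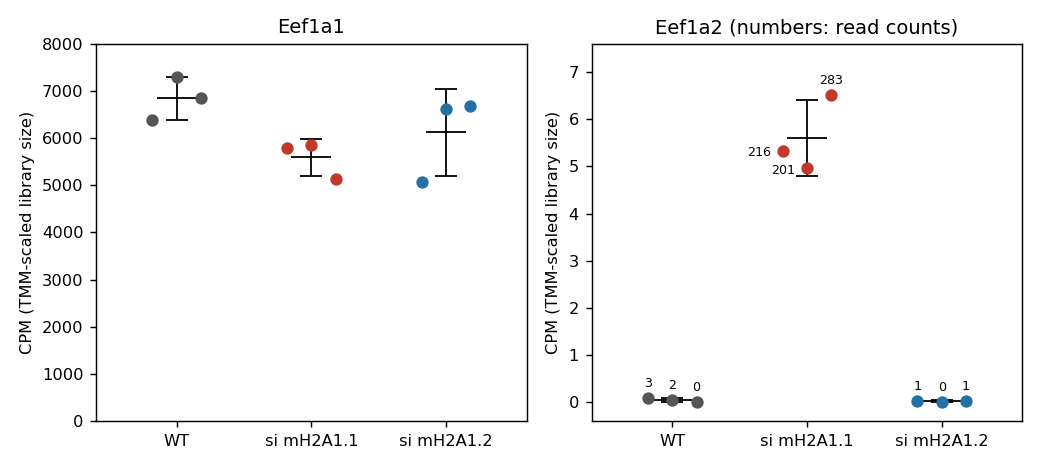
Level of Eef1a1 (left) and Eef1a2 (right) in each of the 9 samples, in CPM on linear axes of different range, with each group's mean and SD. Eef1a1 stayed between 5066 and 7308 CPM everywhere, while Eef1a2 reached 4.97 to 6.52 CPM in si mH2A1.1, and the numbers beside its points are the read counts.

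The pair had been put forward as a translation factor switch, and the levels go against that name. Eef1a2 made up 0.0922% of the counts of both genes in si mH2A1.1 replicate 1 (95% Wilson interval 0.0807% to 0.105%). The share was 0.0848% in replicate 2 (0.0739% to 0.0974%) and 0.127% in replicate 3 (0.113% to 0.142%). Their mean was 0.101% ± 0.0223 (SD, n = 3), and the intervals of replicates 2 and 3 did not overlap. In WT the share was at most 0.00126% and in si mH2A1.2 at most 0.000543%, each from 3 counts or fewer. Per kilobase of the main coding transcript, Eef1a1 exceeded Eef1a2 by 1259-fold, 1368-fold and 916-fold in the 3 si mH2A1.1 samples, a mean of 1181 ± 236. Per kilobase of all annotated exons the share of Eef1a2 was 0.121%, and per kilobase of the coding transcript 0.0871%. On any of these scales Eef1a1 still provided nearly all eEF1A message. The gap between the mean Eef1a1 levels of WT and si mH2A1.1 was itself far larger than the whole Eef1a2 level.

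Part of the Eef1a1 message may be counted under other names. The table held 17 genes that share 50-base words with Eef1a1, 14 of them processed pseudogenes, and together they had 4.48% to 5.61% as many counts as Eef1a1. With these genes added, the Eef1a1 level was 7165 ± 471 CPM in WT, 5884 ± 393 in si mH2A1.1 and 6414 ± 955 in si mH2A1.2, so the order of the groups stayed. The largest of them was Gm26377, the miRNA gene inside Eef1a1, at 221 ± 11.3 CPM in WT and 197 ± 9.82 in si mH2A1.1. Gm6548, a processed pseudogene on chromosome 17 that was picked out after its values were seen, went the other way: its counts were 371, 325 and 284 in WT, 818, 622 and 1064 in si mH2A1.1 and 395, 338 and 312 in si mH2A1.2. Its log2 fold change in si mH2A1.1 was 1.21 (SE 0.19, adjusted p = 0.00582, edgeR), and the counts of such copies remain uncertain.

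Eef1a2 was one of a small set of genes counted almost only in si mH2A1.1. At thresholds set after the values were seen, with an upper limit equal to the highest Eef1a2 count outside si mH2A1.1, 13 of the 52780 genes had at least 20 counts in all 3 si mH2A1.1 samples and at most 3 in each of the other 6. No gene did so for WT or for si mH2A1.2. At 50 counts 2 genes were left, Eef1a2 and Fam177a (62 counts in each si mH2A1.1 sample), and at 100 counts Eef1a2 alone. That order rests on the limit: Lrrc14b (579, 287 and 598 counts in si mH2A1.1) and Arfgef3 (265, 113 and 396) reached 4 counts elsewhere and missed it by 1. Among the other 12 genes at the lower threshold was Fbp2, the muscle form of fructose bisphosphatase, with 57, 56 and 46 counts. Oas1g, an interferon-inducible gene, had 136, 40 and 520.

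Calls against WT among the other genes of the elongation machinery were near the share over all tested genes. In the list of 35 other genes of translation elongation and release, all of them tested, 3 rose and 1 fell in si mH2A1.1 against WT (edgeR; 9 and 4 at an unadjusted p under 0.05, 3 and 3 with DESeq2). In si mH2A1.2 0 rose and 1 fell (edgeR; 0 and 7 at an unadjusted p under 0.05, 0 and 2 with DESeq2). Between the knockdowns, 7 were higher and 1 lower in si mH2A1.1 (edgeR; 8 and 1 with DESeq2), with a median of 0.14, against 12.0% and 10.5% of all tested genes. The shares of all tested genes called were 6.18% higher and 4.93% lower in si mH2A1.1 and 1.37% and 0.982% in si mH2A1.2. The median log2 fold change of the list was 0.06 in si mH2A1.1 and -0.05 in si mH2A1.2, beside -0.01 and 0.00 over all tested genes. The gene with the largest change among those that rose was Eef1akmt1, which encodes a methyltransferase that modifies a lysine of eEF1A itself. Its counts were 458, 413 and 480 in WT, 948, 716 and 803 in si mH2A1.1 and 438, 409 and 443 in si mH2A1.2, so the si mH2A1.1 samples stood above all others (log2 fold change 0.74, SE 0.13, adjusted p = 0.00981, edgeR). The other 2 that rose encode the release factors that end translation at stop codons, Etf1 (0.46, adjusted p = 0.0245) and Gspt1 (0.36, adjusted p = 0.0464). Eif5a2, the less widely expressed paralog of the elongation factor Eif5a, fell by 0.66 on the log2 scale (adjusted p = 0.0337), from 216 to 269 counts in WT to 147 to 183 in si mH2A1.1. Dph5, an enzyme of the diphthamide modification of eEF2, fell in si mH2A1.2 (-0.82, adjusted p = 0.0106).

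Of the subunits of the exchange complex, which act directly on eEF1A, Eef1b2 was nearest to a call. Its si mH2A1.1 samples (336.1 to 340.7 CPM) lay below those of WT (423.5 to 536.7), and its log2 fold change of -0.50 had an adjusted p of 0.0554 with edgeR and 0.0166 with DESeq2. In si mH2A1.1 the log2 fold change was -0.16 for Eef1d (0.405) and -0.15 for Eef1g (0.443), the other subunits. Eef2, which moves the ribosome along the message, was at -0.30 (0.186), its kinase Eef2k at 0.17 (0.264), Eif5a at 0.21 (0.275) and Tufm, the mitochondrial counterpart of eEF1A, at 0.30 (0.126). In si mH2A1.2 these 7 genes lay between -0.37 and 0.15, and none was called there by edgeR or DESeq2. Tufm was higher in si mH2A1.1 than in si mH2A1.2 (0.65, adjusted p = 0.00514, edgeR). The 4 calls of si mH2A1.1 were fragile: 1 was left without WT replicate 1, 2 or 3 or without si mH2A1.1 replicate 1 or 3, and 2 without si mH2A1.2 replicate 2. With the replicate number as a block, si mH2A1.2 had 2 calls in the list.

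**Figure D2:**
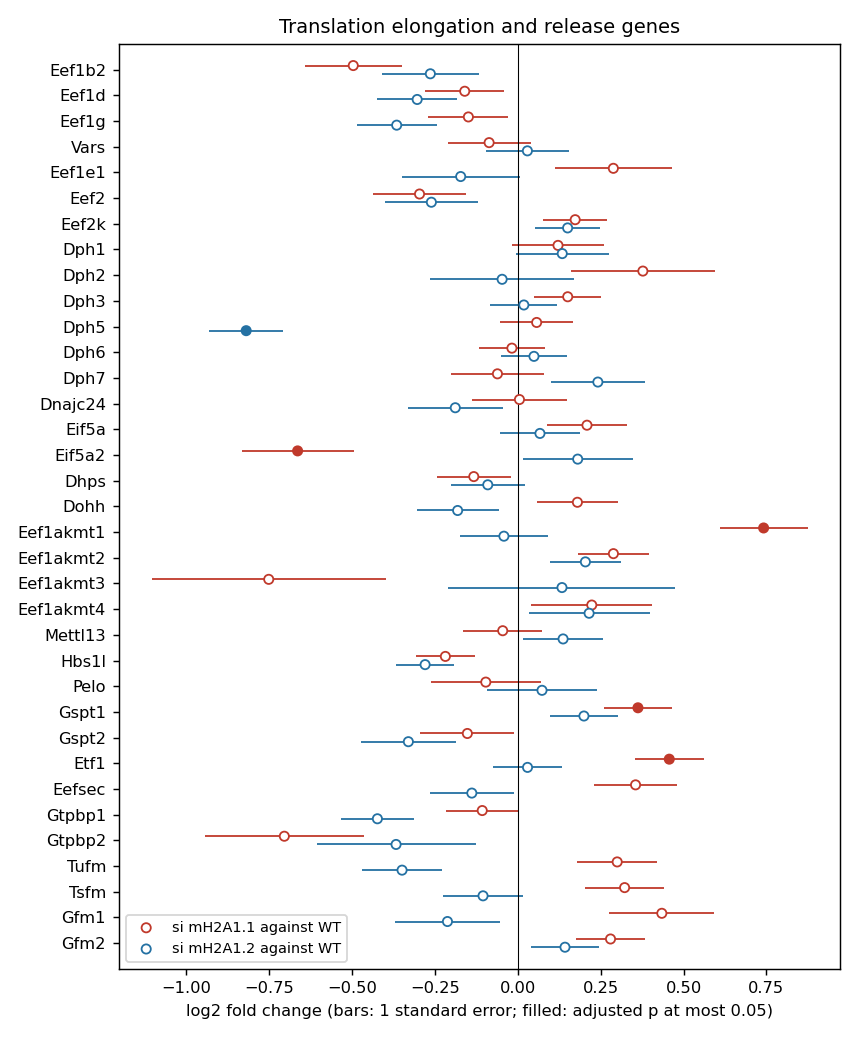
Log2 fold change against WT (horizontal axis, bars of 1 SE) of the 35 genes of translation elongation and release other than Eef1a1 and Eef1a2, for si mH2A1.1 (red) and si mH2A1.2 (blue), with filled points at an adjusted p of at most 0.05. The filled red points are Eef1akmt1, Etf1 and Gspt1 to the right and Eif5a2 to the left, and the filled blue point is Dph5.

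Eef1a2 was compared with the muscle members of 15 other pairs in which a muscle gene has a broadly expressed paralog. Of these 15 muscle members, 1 rose and 2 fell in si mH2A1.1 against WT, and 0 rose and 2 fell in si mH2A1.2 (edgeR; 0 and 8 at an unadjusted p under 0.05, 0 and 5 with DESeq2). The shares over all tested genes were 6.18% higher and 4.93% lower in si mH2A1.1 and 1.37% and 0.982% in si mH2A1.2, so a single rise among 15 was at the background. Between the knockdowns, 6 were higher and 1 lower in si mH2A1.1, against 12.0% and 10.5% of all tested genes. The median log2 fold change against WT was -0.08 in si mH2A1.1 and -0.68 in si mH2A1.2. Of the broad members, 1 of 15 rose in si mH2A1.1, Atp2a2, which encodes the calcium pump of slow muscle and other tissues (877 ± 120 CPM in WT, 1885 ± 336 in si mH2A1.1, adjusted p = 0.0046). In si mH2A1.2 none of the broad members was called by edgeR, 2 had an unadjusted p under 0.05 and 1 was called by DESeq2. Eno3, the muscle enolase, rose in si mH2A1.1 (0.72, adjusted p = 0.0426). Its share of both enolases per kilobase was 72.0% ± 1.74 in WT, 81.1% ± 2.27 in si mH2A1.1 and 74.4% ± 3.74 in si mH2A1.2 (SD, n = 3). Pfkm, the muscle phosphofructokinase, fell by 0.69 on the log2 scale (adjusted p = 0.0483) and Itgb1bp2, which encodes the muscle protein melusin, by 0.62 (adjusted p = 0.0213), and each still held most of its pair, at 87.6% and 90.5%. In si mH2A1.2, Pgam2, the muscle phosphoglycerate mutase, was at -1.43 (adjusted p = 0.0106) and Cox8b, a subunit of cytochrome oxidase, at -1.01 (adjusted p = 0.0235). The share of Pgam2 was 15.6% ± 1.31 in WT, 16.2% ± 3.55 in si mH2A1.1 and 6.09% ± 0.37 in si mH2A1.2.

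The pair most like the eEF1A genes in kind, Rpl3 and its muscle paralog Rpl3l of the large ribosomal subunit, was not called in either member by edgeR. Rpl3l had 10, 14 and 21 counts in WT, 16, 23 and 16 in si mH2A1.1 and 9, 7 and 11 in si mH2A1.2. Its share of the pair per kilobase was 0.23% ± 0.0734 in WT and 0.33% ± 0.0892 in si mH2A1.1, with overlapping samples. The log2 fold change was 0.17 for Rpl3l (adjusted p = 0.791) and -0.33 for Rpl3 (adjusted p = 0.0526 with edgeR, 0.00915 with DESeq2), whose si mH2A1.1 samples (252.5 to 274.6 CPM) lay below those of WT (308.1 to 340.2). Eef1a2 and Rpl3l were thus the muscle members with the smallest shares of their pairs in all groups. The calls depended on single libraries: in si mH2A1.1 they were 0 without replicate 1, and 1 without replicate 3 or without WT replicate 2 or 3. In si mH2A1.2 they were 1 without WT replicate 1 or 3 or without si mH2A1.2 replicate 1 or 2, and 4 with the replicate block.

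**Figure D3:**
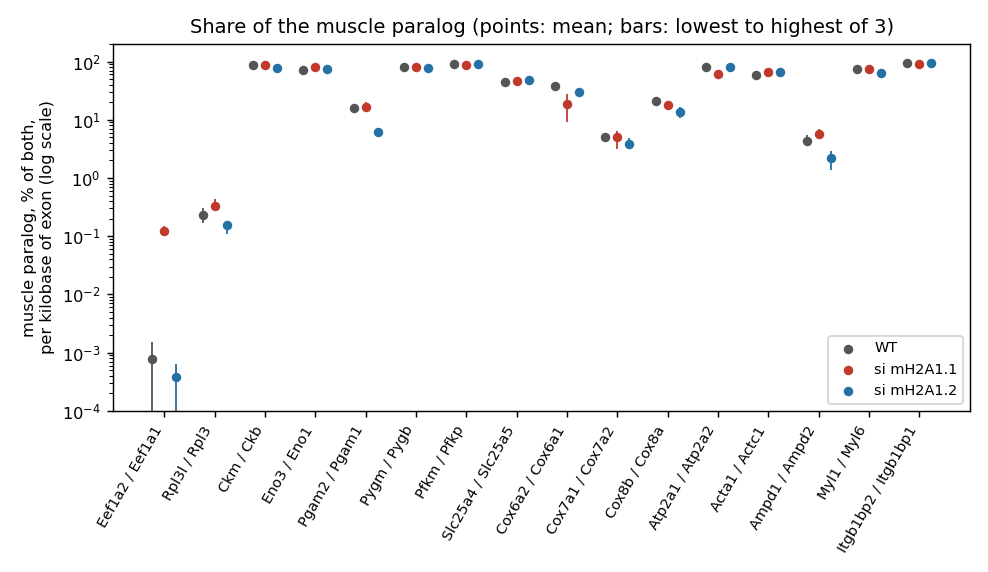
Share of the muscle paralog in the summed level of each of 16 paralog pairs, in percent per kilobase of exon on a log axis, with points for the mean of 3 samples and bars from the lowest to the highest, and bars that meet the bottom edge include a sample at 0. The Eef1a2 share in si mH2A1.1 (0.121%) lay far above WT and si mH2A1.2, and below every other muscle paralog in that group.

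Genes of adult skeletal muscle, the tissue where Eef1a2 replaces Eef1a1, moved apart in the knockdowns. Of 30 such genes, 6 rose and 0 fell in si mH2A1.1 against WT, and 0 rose and 7 fell in si mH2A1.2, with median log2 fold changes of 0.11 and -0.70 (edgeR; with DESeq2 6 rose and 2 fell, and 0 rose and 12 fell; at an unadjusted p under 0.05, 8 and 4, and 0 and 20). Tested against each other, 16 were higher in si mH2A1.1 than in si mH2A1.2 and 0 lower (edgeR; 18 and 0 at an unadjusted p under 0.05, 17 and 0 with DESeq2), with a median of 0.77. Of all tested genes, 6.18% were called higher and 4.93% lower in si mH2A1.1, and 1.37% and 0.982% in si mH2A1.2. Between the knockdowns the shares were 12.0% and 10.5%. The 30 genes include muscle paralogs of the pairs above, among them Eno3, Pgam2 and Cox8b, and myotube markers such as Tnnt3. Their calls are counted in each list, so the lists are not independent. The list was mixed in si mH2A1.1 against WT, with 16 positive and 14 negative values. Cox6a2 (-1.05, adjusted p = 0.0537 with edgeR, 0.00717 with DESeq2) and Casq1 (-0.97, 0.0836 and 0.0219) were among the negative ones. Myf6, a transcription factor of differentiated muscle, was at 1.90 in si mH2A1.1 (adjusted p = 0.000347) and at -1.64 in si mH2A1.2 (adjusted p = 0.00481). Pvalb, the calcium buffer of fast fibres, was at 1.63 (adjusted p = 0.00748) and -2.89 (adjusted p = 0.00631). The fast myosin heavy chains Myh4 (1.57, adjusted p = 0.0142) and Myh1 (1.26, adjusted p = 0.0378) rose in si mH2A1.1. Eef1a2 had 3, 2 and 0 counts in WT and 1, 0 and 1 in si mH2A1.2. At so few reads in WT, a fall in si mH2A1.2 could not have been seen. The 6 calls of si mH2A1.1 became 2 without WT replicate 2 or si mH2A1.1 replicate 3 and 3 without WT replicate 1 or si mH2A1.1 replicate 1. The 7 of si mH2A1.2 became 3 without WT replicate 1 or si mH2A1.2 replicate 1 or 2, 4 without WT replicate 3, 12 with DESeq2 and 13 with the replicate block.

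Messages of the ribosome, which like Eef1a1 begin with a 5′ terminal oligopyrimidine (TOP) tract, lay on the low side in both knockdowns. More were called against WT in si mH2A1.1, but few differed between the knockdowns. Of 80 cytosolic ribosomal protein genes, 0 rose and 17 fell against WT in si mH2A1.1 (edgeR; 0 and 58 at an unadjusted p under 0.05, 0 and 34 with DESeq2), with a median log2 fold change of -0.41 and a negative value in 77. In si mH2A1.2 none was called by edgeR, 18 had an unadjusted p under 0.05, all of them lower, and 1 was called by DESeq2, with a median of -0.25 and a negative value in 78. Those with the lowest p in si mH2A1.1 were Rps14 (-0.84, adjusted p = 0.0179), Rpl13a (-0.62, 0.0258), Rps15a (-0.54, 0.0268) and Rps29 (-0.57, 0.0292). Between the knockdowns, 1 of the 80 was higher and 2 were lower in si mH2A1.1 (edgeR; 1 and 8 at an unadjusted p under 0.05, 1 and 2 with DESeq2). The median there was -0.14, with 10 positive and 70 negative values. Of all tested genes, 12.0% were called higher and 10.5% lower between the knockdowns. Of all tested genes, 6.18% were called higher and 4.93% lower in si mH2A1.1, and 1.37% and 0.982% in si mH2A1.2. Of 17 other genes with TOP messages, 0 rose and 4 fell in si mH2A1.1, Naca (-0.63, adjusted p = 0.00743), Eif4b (-0.92, 0.0239), Rack1 (-0.53, 0.0368) and Fau (-0.76, 0.044), and the median was -0.30 (edgeR; 0 and 7 at an unadjusted p under 0.05, 0 and 6 with DESeq2). In si mH2A1.2 none of the 17 was called by edgeR or DESeq2, and 3 were lower at an unadjusted p under 0.05. All of them had a negative value there, with a median of -0.26, and 15 had one in si mH2A1.1. Between the knockdowns the median was -0.04, with 7 positive and 10 negative values. The Eef1a1 value of -0.29 in si mH2A1.1 was close to the median of these genes in that group. In si mH2A1.2 the Eef1a1 value of -0.16 was less negative than the median of -0.26. The count of 17 was not stable: it was 0 without WT replicate 2 or si mH2A1.1 replicate 1 or 3, 1 without WT replicate 3, 6 without si mH2A1.2 replicate 2, 10 without si mH2A1.1 replicate 2 and 11 without WT replicate 1, and it was 45 without si mH2A1.2 replicate 1, 34 with DESeq2 and 32 in a fit of these groups alone. The 4 TOP calls became 1 without WT replicate 2 or 3 or si mH2A1.1 replicate 1 or 3, 2 without si mH2A1.2 replicate 2 and 6 without si mH2A1.2 replicate 1.

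Across the 9 samples, the levels most like Eef1a1 were those of ribosomal genes and their copies. Among 14380 genes with a mean of at least 1 CPM, the 5 highest Pearson correlations of log2 CPM were with Gm12254 (0.990), Gm10020 (0.983), Rps3a3 (0.983), Rps4x (0.977) and Rpl6 (0.977), the first 3 being processed pseudogenes and the others genes of ribosomal proteins. Among the lowest were those with Tmem88b (-0.970), Synj1 (-0.952), Gm47233 (-0.946) and Angptl4 (-0.946). Rps4x stood at 1040 ± 79.1 CPM in WT, 733 ± 65.4 in si mH2A1.1 and 841 ± 190 in si mH2A1.2, with 625 CPM in si mH2A1.2 replicate 1, the library that was also lowest for Eef1a1. Angptl4, which encodes a secreted inhibitor of lipoprotein lipase, went the opposite way, with 13.5 to 22.7 CPM in WT and 40.3 to 57.9 in si mH2A1.1. The points share libraries and their composition.

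The genes most like Eef1a2 were all highest in si mH2A1.1, at very different levels. The 10 highest Pearson correlations over the 9 samples were with Arfgef3 (0.989), Ckmt2 (0.988), Ppm1e (0.987), Pknox1 (0.985), Armc2 (0.980), Mkrn1 (0.979), Reps2 (0.979), AA467197 (0.976), Irgm2 (0.976) and Lrrc14b (0.975). By Spearman's rho, Arfgef3 took place 3 and Irgm2 place 8, and the others took places 149 to 3491. Ckmt2, the mitochondrial creatine kinase of striated muscle, had 59, 26 and 30 counts in WT, 1772, 1289 and 1688 in si mH2A1.1 and 31, 14 and 15 in si mH2A1.2. Lrrc14b was, like Eef1a2, nearly uncounted outside si mH2A1.1, with 1, 3 and 4 counts in WT, 579, 287 and 598 in si mH2A1.1 and 1, 3 and 3 in si mH2A1.2. Arfgef3 had 265, 113 and 396 counts in si mH2A1.1, at most 4 in WT and 0 in each si mH2A1.2 sample. Irgm2, an interferon-inducible GTPase, reached 1177, 776 and 2098 counts in si mH2A1.1 from 141 to 168 in WT. Pknox1, which encodes a homeodomain transcription factor, moved far less, from 28.9 ± 1.93 CPM in WT to 42.7 ± 1.46 in si mH2A1.1. All 10 were chosen for this pattern, so no test is given for them.

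**Figure D4:**
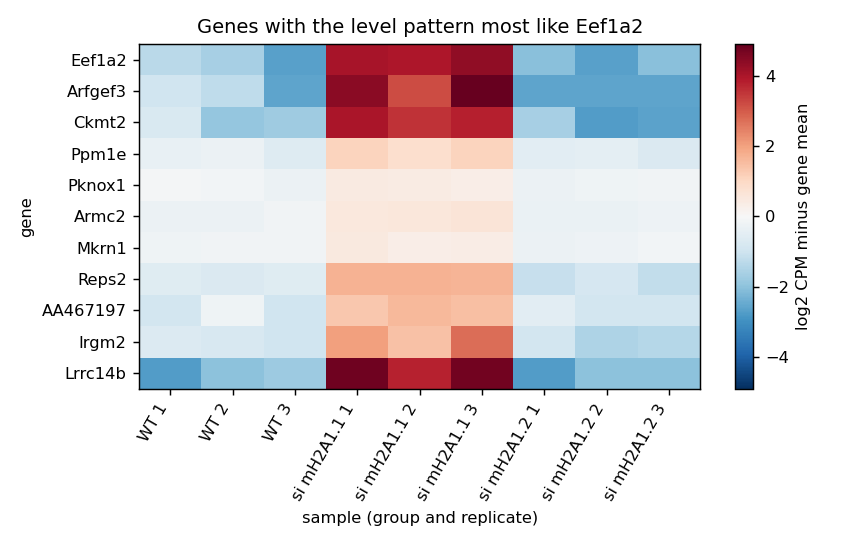
Log2 CPM of Eef1a2 and of the 10 genes with the highest Pearson correlation to it, each minus its own mean over the 9 samples (color scale, red above and blue below the mean). Every row is red in the 3 si mH2A1.1 samples, strongly in Eef1a2, Arfgef3, Ckmt2 and Lrrc14b and faintly in Pknox1, Armc2 and Mkrn1.

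Among the tested genes next to Eef1a2 on its chromosome, only Helz2 was called higher in si mH2A1.1 than in both other groups. Of 16 genes whose start lies within 200 kb of that of Eef1a2, 10 were tested, and in si mH2A1.1 against WT 1 rose and 2 fell. Of all tested genes, 6.18% were called higher and 4.93% lower in that contrast. Ppdpf, the nearest tested gene upstream at 30.2 kb, was at 0.20 in si mH2A1.1 (adjusted p = 0.329). Helz2, an interferon-inducible gene 85.0 kb upstream, rose (0.94, adjusted p = 0.0173). Its level in si mH2A1.1 was also above that in si mH2A1.2 (0.78, adjusted p = 0.0178, edgeR). In si mH2A1.2 against WT it was not called (0.16, adjusted p = 0.764, edgeR). Col20a1, a collagen gene 170.5 kb downstream and the nearest tested gene on that side, fell in both knockdowns (-1.32, adjusted p = 0.00958, and -1.54, adjusted p = 0.0153), and BX649560.1 beside it fell in si mH2A1.1 (-0.53, adjusted p = 0.0127). The calls were 1 without si mH2A1.1 replicate 3, and in si mH2A1.2 Col20a1 was not called without WT replicate 1 or 3 or without si mH2A1.2 replicate 1.

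Around Eef1a1, 8 of 19 genes within 200 kb were tested, and 2 rose and 0 fell in si mH2A1.1. The shares of all tested genes were 6.18% higher and 4.93% lower. Gsta2, a glutathione transferase gene 133 kb downstream, had 67, 67 and 17 counts in WT, 1407, 599 and 1139 in si mH2A1.1 and 22, 38 and 17 in si mH2A1.2 (4.24, SE 0.49, adjusted p = 0.00227, edgeR). Gm10639, 199 kb downstream, was at 4.12 (adjusted p = 0.0104) with at most 5 counts in WT and 21 to 93 in si mH2A1.1. The nearest tested genes on each side, Gm26377 inside Eef1a1 (-0.17, adjusted p = 0.365) and Slc17a5, 98.9 kb upstream (-0.17, adjusted p = 0.349), did not pass the test, and in si mH2A1.2 no neighbour of Eef1a1 was called by edgeR or DESeq2 or had an unadjusted p under 0.05. In si mH2A1.1 none had a lower level at that unadjusted p. Gm26377 shares 59 of the 50-base words of Eef1a1, so its value may repeat that of Eef1a1 and is not a separate neighbour value. Mto1, the next tested gene downstream at 40.9 kb, was at -0.05 in si mH2A1.1 (adjusted p = 0.854, edgeR).

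**Figure D5:**
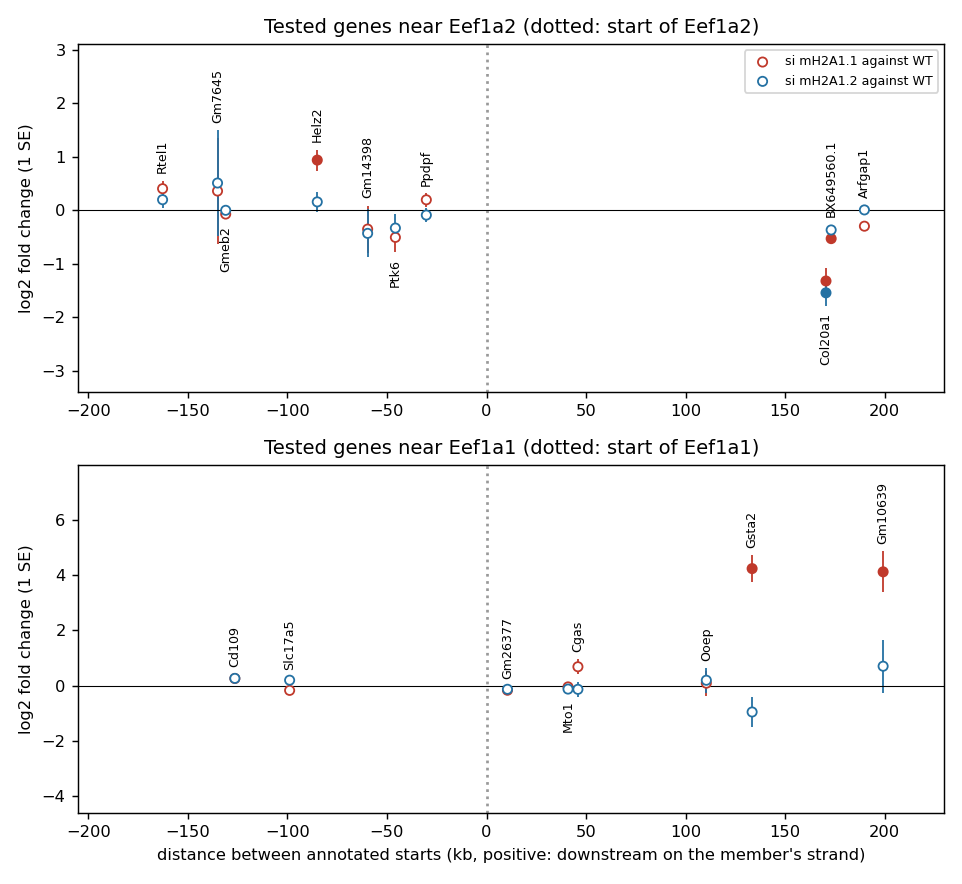
Log2 fold change against WT (vertical axis, bars of 1 SE) of the tested genes within 200 kb of Eef1a2 (top) and Eef1a1 (bottom), by distance between annotated starts in kb, with red for si mH2A1.1, blue for si mH2A1.2 and filled points at an adjusted p of at most 0.05. Near Eef1a2 only Helz2, Col20a1 and BX649560.1 carry filled points, and near Eef1a1 only Gsta2 and Gm10639, both over 100 kb away.

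Eef1a2 is also a gene of neurons and heart, so the markers of these and other cell types were read in the same samples. Of all tested genes, 6.18% were called higher and 4.93% lower in si mH2A1.1, and 1.37% and 0.982% in si mH2A1.2. All 14 myotube markers (Myod1, Myog, Mef2c, Myh3, Myh8, Actc1, Acta1, Ckm, Tnnt1, Tnnt3, Des, Ttn, Mymk and Mymx) were counted in every group, with summed levels of 21690 to 31760 CPM in WT, 19830 to 23890 in si mH2A1.1 and 18470 to 23230 in si mH2A1.2. In si mH2A1.1 the regulator Myog (-0.66, adjusted p = 0.0204) and the fusion protein gene Mymx (-0.82, adjusted p = 0.0221) fell, and in si mH2A1.2 Tnnt3 (-0.96, adjusted p = 0.028) and Des (-0.62, adjusted p = 0.0466). Des was at 0.45 in si mH2A1.1 (adjusted p = 0.0577 with edgeR, 0.00885 with DESeq2). Both si mH2A1.1 calls were lost without WT replicate 2 or 3 or si mH2A1.1 replicate 1 or 3, and 4 were made with DESeq2. Both si mH2A1.2 calls were lost without WT replicate 1 or 3 or si mH2A1.2 replicate 1 or 2, 1 was left without WT replicate 2, si mH2A1.1 replicate 2 or 3 or si mH2A1.2 replicate 3, and 4 were made with the replicate block. In these bulk samples fewer cells of a type and less RNA per cell cannot be told apart.

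Of 10 neuron markers 9 were tested, and 4 rose and 1 fell in si mH2A1.1, beside 6.18% and 4.93% of all tested genes. Tubb3 (2.57, adjusted p = 0.0197), Nefl (2.09, 0.00697), Gap43 (2.09, 0.00378) and Nefm (1.99, 0.0107), which encode cytoskeletal and growth cone proteins, rose, and the synaptic Syt1 fell by 1.76 on the log2 scale (adjusted p = 0.0157). Snap25 (0.42), Map2 (0.29), Stmn2 (0.37) and Eno2 (-1.23) did not pass the test. The summed level was 376 to 473 CPM in si mH2A1.1, 278 to 340 in WT and 225 to 375 in si mH2A1.2, and Rbfox3, which defines neuronal nuclei, had at most 1 count in any sample. In si mH2A1.2 no neuron marker was called by edgeR or DESeq2, and 1 had an unadjusted p under 0.05. In si mH2A1.1 the 5 calls became 3 without WT replicate 2 or si mH2A1.1 replicate 1.

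The lists below stand beside shares of all tested genes of 6.18% higher and 4.93% lower in si mH2A1.1. In si mH2A1.2 these shares were 1.37% and 0.982%. Of 8 cardiomyocyte markers 6 were tested and 1 fell in si mH2A1.1, Myh6 (-1.60, adjusted p = 0.0327), with summed levels of 1410 to 1700 CPM against 1043 to 1899 in WT, while the heart-defining Myl7 and Nppa had at most 3 counts in every sample. That call was lost without any 1 of the WT replicates or without si mH2A1.1 replicate 1. Of 6 fibroblast markers 5 were tested and 2 fell in si mH2A1.1, Lum (-2.74, adjusted p = 0.00608) and Col3a1 (-1.06, adjusted p = 0.0142), and their summed level was 3421 to 5749 CPM against 8004 to 9723 in WT and 10160 to 13820 in si mH2A1.2, where 0 were called (edgeR and DESeq2; 2 higher at an unadjusted p under 0.05). The 2 calls of si mH2A1.1 became 1 without WT replicate 2 or si mH2A1.1 replicate 1 or 3. Of 6 smooth muscle markers Tagln fell in si mH2A1.1 (-1.32, adjusted p = 0.0354), and the sums overlapped at 3384 to 3932 and 3087 to 4036 CPM. That call was lost without WT replicate 2 or 3 or si mH2A1.1 replicate 1 or 2, and the list had 3 calls with DESeq2 or without si mH2A1.2 replicate 1 and 2 without si mH2A1.2 replicate 3. In si mH2A1.2 Cnn1 (2.22, adjusted p = 0.0247) and Tagln (1.54, adjusted p = 0.046) rose and Des fell, and these 3 calls became 0 without any 1 of the WT replicates or without si mH2A1.2 replicate 2 or 3, and 1 without si mH2A1.2 replicate 1. The cardiomyocyte markers Tnni3 (-1.98, adjusted p = 0.0161) and Gata4 (-0.85, adjusted p = 0.0216) also fell there, with 0 calls left without si mH2A1.2 replicate 1 and 1 without any 1 of the WT replicates or si mH2A1.2 replicate 3. The fibroblast sum was thus lower than in WT in si mH2A1.1, where Eef1a2 was counted, and higher in si mH2A1.2, where it was not. The single fibroblast markers were mixed. In si mH2A1.1, 3 of the 5 tested had a negative log2 fold change and 2 a positive one, with a median of -0.18. In si mH2A1.2, 2 were negative and 3 positive, with a median of 0.39. The neuron sum was above WT in si mH2A1.1 and overlapped WT in si mH2A1.2. The part of these markers' cell types in the Eef1a2 level was not tested.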

How the data were processed

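Estimated counts per gene, deposited by the authors as whole numbers and rounded here where needed, came from Salmon 0.13.1 in quasi-mapping mode on GRCm38 (mm10 in the labels), imported with tximport; the annotation release is not given in the sources used here. A second deposited table held the same counts divided by 1 factor per sample, a signal used only as an alternative. Symbols were taken from GENCODE M21 for 52762 of 52780 identifiers. Genes passing filterByExpr (19545) were fitted with edgeR 4.0.16 (R 4.3.3, TMM, quasi-likelihood, all 9 samples in 1 model) and called at a Benjamini-Hochberg adjusted p of at most 0.05. Elsewhere, adjusted p-values are from this fit. Exact permutation of 3 against 3 samples cannot go below p = 0.1, so none was used.

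The members and all lists were chosen with earlier results of these data known. Named were the eEF1B subunits, Eef2, Eef2k, Eif5a, Tufm and all called members of the elongation list; Rpl3, Rpl3l and pairs with a called muscle member; up to 4 lowest p-values of other lists; called and nearest tested neighbours within 200 kb; and the 10 genes most like Eef1a2 and 5 at each end for Eef1a1; some genes under these rules are not reported here. CPM are TMM-scaled; log2 CPM used a prior count of 2. Per kilobase values used the union of GENCODE exons. Share intervals are Wilson 95%, pooled ratios exact 95%. Totals of 36924252 to 42223108 counts per sample make a count of 0 compatible with up to 3.

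Alternatives were DESeq2 1.42.0, its size factors, other count filters, a replicate block, own groups only, a stricter call rule and leaving out each sample. Deviations from group means of same-numbered samples correlated at 0.196 to 0.331 between si mH2A1.2 and WT, so the block is given beside those results. Between si mH2A1.1 and WT they correlated at 0.0841 to 0.0976. The labels do not say what the number marks, although the library names of same-numbered samples run in consecutive order. The scripts were tested on simulated data.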

Additional observations from a re-analysis of the deposited data

How the results depend on the processing

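None of the member values or of the 49 named called genes changed direction under the alternatives in which they were recomputed; 47 of these genes could be tested at 10 counts in every sample. Genes called in si mH2A1.1 against WT went from 2171 to 3354 with DESeq2, 4065 with the replicate block and 352 at a stricter rule (adjusted p under 0.01 and at least 0.8 on the log2 scale in either direction); in si mH2A1.2 against WT from 460 to 1096, 1005 and 35; between the knockdowns from 4397 to 1247 at the stricter rule. The elongation list went from 4 to 9 with the replicate block and 0 at the stricter rule in si mH2A1.1, and from 1 to 2 with DESeq2, 2 with the block and 0 at the stricter rule in si mH2A1.2. The muscle paralogs went from 3 to 5 with the block and 0 at the stricter rule in si mH2A1.1, and from 2 to 5 with DESeq2, 4 with the block and 0 at the stricter rule in si mH2A1.2. The cause of these shifts was not tested.

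Leaving out 1 sample gave 605 to 2928 called genes in si mH2A1.1, 74 to 544 in si mH2A1.2 and 2251 to 4616 between the knockdowns, 1 to 4 and 1 to 1 for the elongation list, and 0 to 3 and 1 to 2 for the muscle paralogs. For the members it gave Eef1a1 log2 fold changes of -0.34 to -0.24 in si mH2A1.1 and -0.23 to -0.05 in si mH2A1.2, an Eef1a2 share of 0.0885% to 0.109%, and an Eef1a2 ratio of 84.3 to 215. Of 49 named genes called against WT, 49 were still called with DESeq2 and with the block, 44 in fits of the contrast's own groups, 11 at the stricter rule and 23 to 44 without 1 sample. Same-numbered samples of si mH2A1.1 and WT correlated at 0.0841 to 0.0976, under the limit of 0.1, although every sample correlated best with its own number, which is a hint from the data that the numbers pair these samples too. With the block, the calls in si mH2A1.1 were 6 for the TOP list, 30 for the ribosomal proteins, 12 for the adult muscle genes, 7 for the myotube markers and 3 for the smooth muscle markers, and the adjusted p was 0.0221 for Eef1b2, 0.0371 for Rpl3 and 0.0136 for Des. Depth limits Eef1a2 in WT and si mH2A1.2, where 3 counts or fewer set every ratio.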
